A study of Mus musculus with 3 samples.

Results

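Annexins and the ferlin Myof were examined in mouse liver RNA set against Universal Mouse Reference RNA (UMRR), a product that pools the RNA of several mouse cell lines for use as a common standard. Members were the probes whose single gene symbol in the platform annotation starts with Anxa and a digit, or is Myof. They came to 18 of 16273 probes and to 11 of 7984 named genes (10 annexin genes and Myof). The group was chosen by the log ratios of liver over UMRR, the low values of Anxa2 and Myof first among them, so the ratios of its genes are a description and carry no test. Anxa7 and Anxa11 were not analysed here.

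Each of 3 arrays of 2 colours carried purchased liver total RNA labelled with Cyanine-5 and purchased UMRR labelled with Cyanine-3, each made into cRNA by a single round of amplification. The arrays form 1 group and repeat 1 pair of RNA products, with no dye swap, so p-values measure the array-to-array spread alone, which may be technical. Any bias between the dyes enters every ratio. The labels give no strain, sex or age for the liver and no cell lines for the pool. In such bulk RNA, fewer cells of a type and less RNA per cell cannot be told apart.

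The deposited values are log ratios with base and direction unstated. They are read here as log2, and natural logs would make every log2 value larger by a factor of 1.44. The direction was read from secreted proteins of hepatocytes. Their 4 measured genes, Ambp, Apoc3, Rbp4 and Vtn, had a median log2 ratio of 4.57, so positive values are taken as higher in liver. An exact 0 was read as no measured ratio, and 5520 genes had a ratio on all 3 arrays. Array 1 stood apart. The SD over genes of its difference was 0.43 from array 2 and 0.38 from array 3, while the latter arrays differed from each other with an SD of 0.21. The number of arrays limits the precision.

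Annexins are cytosolic proteins that bind acidic phospholipids when calcium rises. They link membranes to each other and to the actin cortex, and they gather at wounds of the plasma membrane. Several work in a complex with a small EF-hand protein of the S100 family, such as annexin A2 with S100A10 or annexin A1 with S100A11. Ferlins are large proteins with tandem C2 domains, anchored in membranes near their end. They too bind lipids in response to calcium and act in membrane fusion and repair. Myoferlin, the product of Myof, is known from myoblast fusion and from growth factor receptor traffic in endothelial and tumour cells. Hepatocytes are known for annexin A6, while annexins A1, A2, A3 and A5 are prominent in non-parenchymal and in many cultured cells.

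The region upstream of the start site is shown for 5 genes. Myof, Anxa2, Anxa1 and Anxa10 are shown because their windows held a match to a motif searched for, and Anxa9, at 1 of its start sites, as a gene with no match whose ratio lay above 1. The sequences are from RefSeq (GRCm38.p6) and cover the 250 bases before the start, 5′ to 3′ on the gene's own strand. Capitals mark matches on either strand to any of 5 short motifs, and no matches overlapped. The TATA box was searched as TATAAA. The element of the general activator Sp1, called the GC box, was searched as GGGCGG. The binding element of the factor NF-Y was searched as CCAAT. The element of AP-1, the dimer of Fos and Jun, was searched as TGANTCA. The element of the TEAD factors, which work with the coactivator Yap, was searched as GGAATG. Myof lies at chr19:38043578-38043827 on the minus strand, Anxa2 at chr9:69453433-69453682 on the plus strand, Anxa1 at chr19:20390672-20390921 on the minus strand, Anxa10 at chr8:62123194-62123443 on the minus strand and Anxa9 at chr3:95315181-95315430 on the minus strand.
Myof: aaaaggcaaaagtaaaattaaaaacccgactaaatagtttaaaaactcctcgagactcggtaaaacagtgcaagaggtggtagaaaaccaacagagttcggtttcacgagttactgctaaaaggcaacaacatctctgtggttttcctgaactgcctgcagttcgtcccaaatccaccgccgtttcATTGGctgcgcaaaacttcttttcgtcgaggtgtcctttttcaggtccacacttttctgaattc
Anxa2: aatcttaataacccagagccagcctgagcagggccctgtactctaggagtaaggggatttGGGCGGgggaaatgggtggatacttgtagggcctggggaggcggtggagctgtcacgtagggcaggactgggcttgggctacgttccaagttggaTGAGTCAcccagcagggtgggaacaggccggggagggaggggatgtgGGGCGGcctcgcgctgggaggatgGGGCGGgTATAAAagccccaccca
Anxa1: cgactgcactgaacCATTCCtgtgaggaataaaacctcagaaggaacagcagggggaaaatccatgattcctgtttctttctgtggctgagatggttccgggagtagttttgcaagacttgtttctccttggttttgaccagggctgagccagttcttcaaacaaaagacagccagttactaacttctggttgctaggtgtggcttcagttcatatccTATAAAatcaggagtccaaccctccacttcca
Anxa10: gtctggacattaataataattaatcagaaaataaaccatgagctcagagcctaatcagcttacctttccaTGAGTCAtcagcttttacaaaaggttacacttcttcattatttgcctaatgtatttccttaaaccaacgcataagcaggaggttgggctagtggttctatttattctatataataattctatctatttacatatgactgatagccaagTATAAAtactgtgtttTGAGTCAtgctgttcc
Anxa9: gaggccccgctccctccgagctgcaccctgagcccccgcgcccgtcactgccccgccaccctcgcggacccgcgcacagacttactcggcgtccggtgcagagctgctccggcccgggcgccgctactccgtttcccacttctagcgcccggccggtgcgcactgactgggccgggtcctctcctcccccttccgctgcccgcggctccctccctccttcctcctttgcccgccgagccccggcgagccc

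The promoter table held 8 of the 11 genes, with 10 start sites in all. The window of Anxa2 held a TATA box 17 to 12 bases before the start, 3 GC boxes and an AP-1 element 95 to 89 bases before it. That of Myof held none of these, and a CCAAT box on the other strand 64 to 60 bases before the start. Anxa10 shared the TATA box and the AP-1 element with Anxa2. Anxa1 had a TATA box 32 to 27 bases before its start and a TEAD element. The windows of Anxa4, Anxa5, Anxa8 and Anxa9 held no match. Over all 10 windows, 3 held the TATA box, 2 the AP-1 element, and 1 each the GC box, the CCAAT box and the TEAD element. Among the 32851 windows of all genes, the shares were 12.4%, 6.75%, 32.7%, 33.8% and 12.6% in that order. The GC content was 42.8% for Myof, 62.4% for Anxa2, 46.0% for Anxa1, 33.6% for Anxa10 and 75.6% for the window of Anxa9, around a median of 52.4% over all windows. These are matches of letters in a window of fixed length, and no binding was measured.

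Myof was the lowest of the group. Its single probe gave log2 ratios of -3.87, -3.69 and -3.71 on arrays 1, 2 and 3. The arrays thus lay within 0.18 of each other, all at least 12.9-fold lower in liver. The mean was -3.76 ± 0.10 (SD, n = 3), or 13.5-fold lower, which placed Myof sixth from the bottom of 5520 genes.

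The low annexins came next, and their arrays did not overlap with those of Myof. Anxa3, an annexin abundant in neutrophils and in many tumour lines, stood at -3.05, -2.88 and -2.74, with a mean of -2.89 ± 0.15 (SD, n = 3), or 7.41-fold lower in liver. Anxa2, the partner of S100A10 and a binder of actin, stood at -2.16, -2.40 and -2.74, with a mean of -2.43 ± 0.29 or 5.39-fold lower. It had the widest spread of the group, 0.57 from array to array, and on array 3 it lay level with Anxa3. Anxa8, an annexin of stratified epithelia, stood at -1.89, -2.06 and -2.11, with a mean of -2.02 ± 0.11 or 4.06-fold lower. On every array Anxa3 was below Anxa2 and Anxa2 below Anxa8, but the gap between Anxa3 and Anxa2 shrank from 0.88 on array 1 to 0.0019 on array 3. That gap, 0.46 ± 0.44, is thus little larger than its own spread.

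Anxa5, Anxa1 and Anxa6 were moderately lower. Anxa5, known for its use as a stain of exposed phosphatidylserine, stood at -1.26, -1.31 and -1.26 (mean -1.28 ± 0.028, SD, n = 3, or 2.43-fold lower). It had the smallest spread of the group. Anxa1, a mediator of glucocorticoid action on inflammation, stood at -1.29, -1.38 and -1.13 (mean -1.27 ± 0.12, or 2.40-fold lower). The arrays of Anxa5 and Anxa1 overlapped, with Anxa5 below Anxa1 on 1 of 3 arrays, so the pair did not differ beyond its spread. Anxa6, which carries a doubled annexin core, stood at -0.88, -1.03 and -0.89 (mean -0.93 ± 0.083, or 1.91-fold lower), above Anxa1 on every array. Anxa4, an annexin of secretory epithelia, had a ratio on arrays 1 and 2, at -0.82 and -0.84, and an exact 0 on array 3.

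The remaining annexins lay nearest to a ratio of 1 or above it. Anxa10, below the median of all genes on every array, an annexin of the gastric lining that lacks most calcium sites, stood at -0.20, -0.31 and -0.25 and averaged -0.25 ± 0.056 (SD, n = 3) over 3 probes. Anxa9, which also lacks calcium-binding sites, stood at 0.40, 0.38 and 0.25 (mean 0.34 ± 0.080, or 1.27-fold higher in liver). Anxa13, an annexin of the intestinal epithelium and the most ancient of the vertebrate family, stood at 1.02, 1.10 and 0.87 (mean 1.00 ± 0.12, or 1.99-fold higher). No array of Anxa13 fell to the level of Anxa9, and none of Anxa9 to that of Anxa10. From Myof to Anxa13, neighbours in the order kept it on all 3 arrays with no overlap, except Anxa5 and Anxa1.

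**Figure D1:**
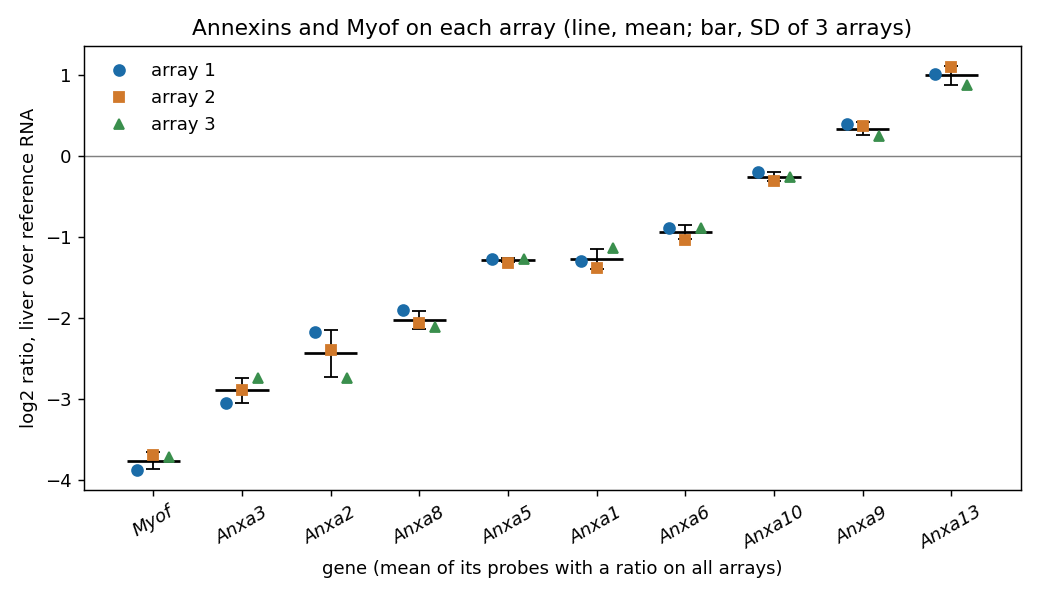
Log2 ratios of liver over reference RNA (y axis) for the 10 genes with a ratio on all arrays (x axis), with 1 symbol per array, a line at the mean and a bar of 1 SD over 3 arrays. Myof lies lowest at -3.76, Anxa2 has the widest spread, Anxa5 and Anxa1 overlap, and only Anxa9 and Anxa13 lie above 0.

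Of the 9 annexin genes with a ratio on all arrays, 7 were below 0 on every array and 2 above 0 on every array. Among all genes, 41.6% were below 0 on every array and 37.9% above. A difference of at least 2-fold towards UMRR on every array was seen for 5 of the 9 annexins and for Myof, beside 9.53% of all genes. At 4-fold the count was 2 annexins (Anxa2 and Anxa3) and Myof, beside 2.10% of all genes. No annexin was 2-fold higher in liver on every array, beside 9.46% of all genes. The median of the 9 annexins was -1.27 (-1.26, -1.31 and -1.13 on arrays 1, 2 and 3), and the median of all genes was -0.028. Since the genes were chosen with these ratios known, nothing is read from the comparison.

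**Figure D2:**
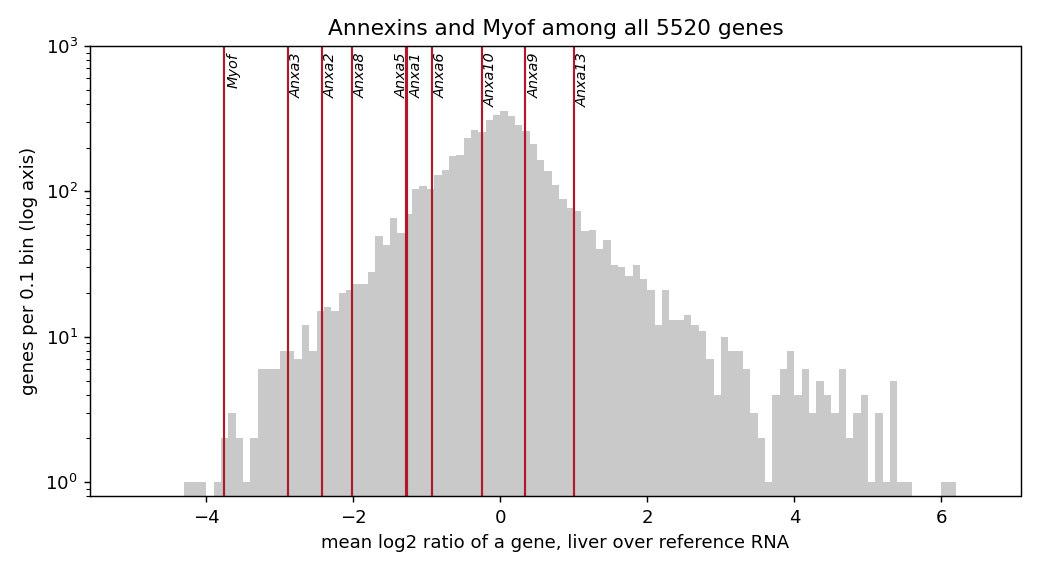
Histogram of the mean log2 ratio of all 5520 genes (x axis; genes per bin on a log y axis), with red lines at the 10 genes of the group. Myof, Anxa3, Anxa2 and Anxa8 lie in the thin lower tail, at ranks 6, 41, 86 and 156 from the bottom, while Anxa10 and Anxa9 lie in the central peak.

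Over the 10 genes, array 1 had a Pearson's r of 0.996 with array 2 and of 0.987 with array 3, and the remaining pair of arrays reached 0.993. Over all 5520 genes the same pairs of arrays had an r of 0.928, 0.939 and 0.982 in that order. These are correlations across genes of 1 RNA pair, which are not independent. The 10 genes were chosen with their ratios known, so their higher r is not read as better agreement of the arrays. The median SD of a gene over the arrays was 0.11 in the group and 0.17 over all genes.

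Several annexins had more than 1 probe, and these did not always give the same picture. Of the 18 probes, 12 (66.7%) had a ratio on all arrays, 2 on 2 arrays, 1 on 1 array and 3 on none, and of all named probes 62.7% had a ratio on every array. For Anxa2, Anxa4 and Anxa6 a probe (1762, 202 and 9081) was at exact 0 on all arrays, so the ratios of these genes rest on the other probe (12038, 1951 and 4163). Counting such zeros as ratios of 1 would bring Anxa2 to -1.22 and Anxa6 to -0.47.

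Anxa10 had 5 probes that went both ways. Probe 15681 was below 0 throughout, at -0.60, -0.46 and -0.41. Probe 8666 ranged from 0.0046 on array 1 to -0.66 on array 2, and probe 17221 from -0.096 to 0.20 around 0. Probe 3953 had ratios of 0.24 on array 1 and 0.26 on array 2, and probe 14931 a single ratio of -0.11 on array 2. The means of the 3 probes with ratios on all arrays thus ran from -0.49 to 0.037, a wider range than the SD of the gene's value over arrays (0.056) shows. The gene's value moved to -0.17 when probes with ratios on at least 2 arrays were let in. Whether any probe takes up RNA of a related annexin was not tested.

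**Figure D3:**
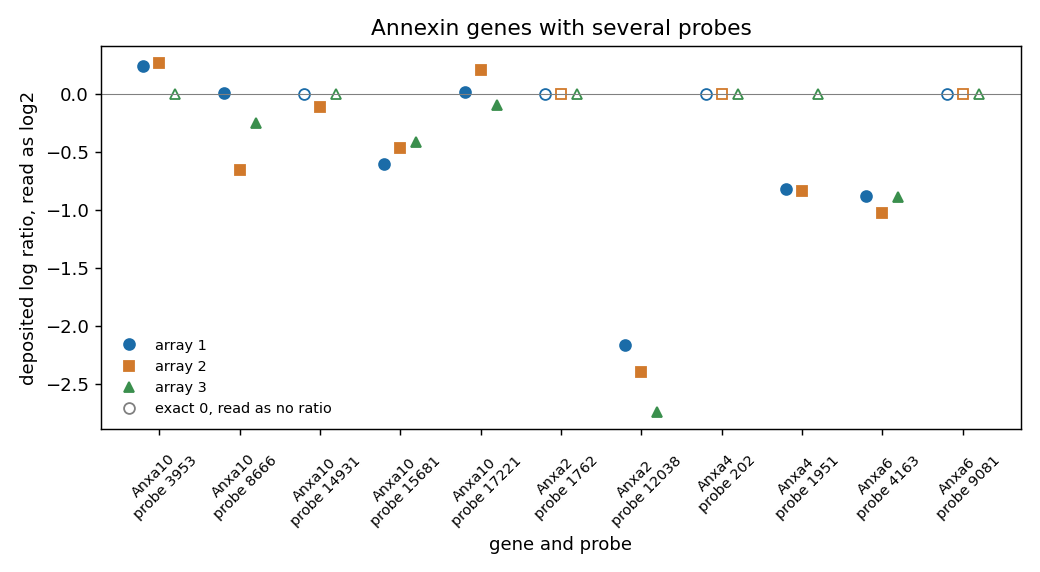
Deposited log ratios, read as log2 (y axis), of each probe of Anxa2, Anxa4, Anxa6 and Anxa10 (x axis), with 1 symbol per array and open symbols for an exact 0. Probes 1762 of Anxa2, 202 of Anxa4 and 9081 of Anxa6 have no ratio on any array. The 5 probes of Anxa10 lie on both sides of 0 between -0.66 and 0.26.

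The genes whose ratios lay closest to those of Anxa2 over the 3 arrays, by root mean square difference, were Dbf4 (0.036), Ccnb2 (0.12) and Blnk (0.15). Dbf4 activates the kinase that fires replication origins, Ccnb2 is a mitotic cyclin and Blnk an adaptor of the B cell receptor. The arrays of Dbf4 ran at -2.17, -2.46 and -2.74, close to Anxa2 on each. For Myof the closest were Armcx2 (0.28), Plk2 (0.29) and Ms4a1 (0.32). Plk2 is a polo-like kinase and Ms4a1 encodes the B cell antigen CD20. With 1 tissue and 3 arrays, likeness means only a ratio of similar size.

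Genes that work with annexins and ferlins were then examined. These are no members, so they were tested in the limma fit over all 5520 genes with Benjamini-Hochberg adjustment, although the lists were written with earlier results known. In that fit 33.9% of all genes were lower in liver and 30.1% higher at an adjusted p under 0.05.

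The closest relative of Myof, the ferlin Dysf (dysferlin, the membrane repair protein of muscle), was lower in liver too. Its ratios were -2.51, -2.80 and -2.73, with a mean of -2.68 ± 0.15 (SD, n = 3), or 6.40-fold lower (limma adjusted p = 6.23e-06). The ferlin-like gene Fer1l4 did not pass, at 0.12 (limma adjusted p = 0.290). Of the 11 measured genes of ferlins and other C2 domain proteins, the fit called 6 lower and 1 higher, left 4 uncalled, and the list median was -0.61. Syt13, a synaptotagmin, had the lowest ratio of the list at -3.11 ± 0.39 (limma adjusted p = 1.60e-05), while the synaptotagmin of neurons, Syt1, was slightly higher at 0.28 ± 0.013 (limma adjusted p = 0.0316). The probes of Syt1 disagreed on array 1, where probe 4478 stood at 0.57 and probe 13844 at -0.010, and probe 4691 was at exact 0 on all arrays. The call of Syt1 was lost without array 2 (limma adjusted p = 0.163) and without array 3 (limma adjusted p = 0.201).

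S100 genes went both ways. S100a11, the partner of annexin A1, was lower in liver on both of its probes. Its ratios were -1.70, -1.91 and -1.61, with a mean of -1.74 ± 0.16 (SD, n = 3), or 3.34-fold lower (limma adjusted p = 2.90e-05). S100a9, a calprotectin subunit of neutrophils and monocytes, was higher at 1.37, 2.86 and 2.47 (mean 2.23 ± 0.77, limma adjusted p = 0.00058), with array 1 well below the others. Without moderation of the variance its limma adjusted p was 0.0754, and with exact zeros kept as ratios of 1 it was 0.0555. Of the 6 measured S100 genes, the fit called 4 higher and 1 lower and left 1 uncalled (list median 0.63). Among those called higher, S100a1 had probes that disagreed. Probe 3436 had a mean of 1.55 and probe 4840 of 0.057, while probe 2803 was at exact 0 on all arrays. The probes of S100a6, a binder of annexins A2 and A11, were at exact 0 on all arrays. S100a10 was not analysed here.

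Genes of membrane repair and the ESCRT machinery were split as well. Of 10 measured, the fit called 4 lower and 3 higher and left 3 uncalled (list median -0.021). Ehd4, a membrane-shaping ATPase, was lower at -1.54 ± 0.44 (SD, n = 3; limma adjusted p = 0.000395). So was Capn2, the catalytic subunit of m-calpain, at -1.25 ± 0.17 (limma adjusted p = 0.00012). Sri, encoding sorcin, which binds annexins A7 and A11, was lower on each of its 4 probes, with a mean of -0.63 ± 0.086 (limma adjusted p = 0.00145). In the other direction stood Ahnak, a giant scaffold that binds the complex of annexin A2 and S100A10, at 0.64 ± 0.22 (limma adjusted p = 0.0032), and Pdcd6, the calcium sensor ALG-2, at 0.39 ± 0.23 (limma adjusted p = 0.0252). The call of Pdcd6 was lost without array 3 (limma adjusted p = 0.0758). Without moderation of the variance Ahnak (adjusted p = 0.0731), Ehd4 (adjusted p = 0.0613) and Pdcd6 (adjusted p = 0.150) did not pass, and with exact zeros kept as ratios of 1 Ahnak (adjusted p = 0.0535) and Pdcd6 (adjusted p = 0.134) did not.

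Caveolae are small pits of the plasma membrane that flatten under stretch. Of 4 measured genes, the fit called 3 lower and left 1, Cav3, uncalled (list median -1.11). Cavin3, a coat protein of caveolae, was lower at -2.37 ± 0.075 (SD, n = 3; limma adjusted p = 6.73e-06). Cavin1, the main coat protein, averaged -1.62 ± 0.016 (limma adjusted p = 2.25e-05), but its probes disagreed. Probe 4071 stood at -3.14 and probe 2460 at -0.10. Cav1, encoding caveolin-1, had no probe with a ratio on all arrays, and its probes pointed in opposite directions: probe 4144 stood at 2.22 on array 1 and 2.59 on array 3, and probe 4697 at -2.67 on array 2.

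**Figure D4:**
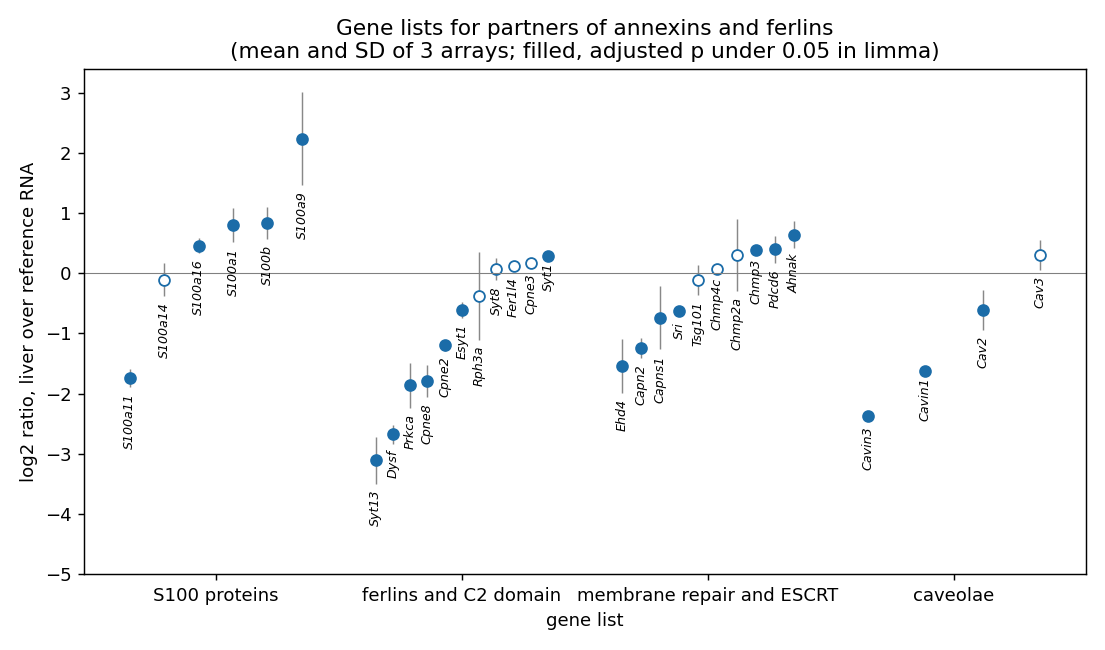
Mean log2 ratio of liver over reference RNA with the SD over 3 arrays (y axis) for the measured genes of 4 lists (x axis), filled where the limma adjusted p was under 0.05. Syt13, Dysf, Cavin3 and S100a11 lie well below 0, S100a9 lies highest, and the membrane repair list spreads around 0.

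Markers of cell types that either RNA could hold moved in this comparison as well. All 4 measured proliferation genes were lower in liver (median -2.27, Mki67 at exact 0 on all arrays). Of 4 measured fibroblast and stellate genes, 2 were lower (Vim and Col3a1), 1 was higher (Lum) and Pdgfrb was uncalled, with list medians of -0.98, -0.93 and -0.93 on arrays 1, 2 and 3, and Des and Sparc at exact 0. The bile duct list had 1 measured gene, Sox9, which was lower at -1.28. On the liver side were 8 of 9 measured genes of pancreatic acinar cells, with Cel uncalled at 0.22. The list median was 3.88, beside 4.57 for the hepatocyte genes, and Reg2 stood at 5.55 and Try4 at 5.38. Ratios called liver here are thus those of the purchased RNA as labelled, and whether it held RNA of pancreas was not tested. The macrophage list had 1 measured gene, Slc40a1, higher at 3.91 to 4.13 over the arrays. Cd68 was at exact 0 on all arrays, and Csf1r had a ratio on array 1 alone, at 0.41. Of 2 endothelial genes, 1 was higher. The part of these cell types in the ratios of the annexins was not tested.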

How the data were processed

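The authors deposited 1 signed log ratio per probe and array, read here as log2; which scanner, background correction, dye normalization, filter and log base they used was not stated in the labels. The deposited median was 0 on each array. Probes were named from the platform annotation (12336 with 1 symbol, 61 with several, 3876 with none; 12228 matched the GRCm38.p6 gene table by identifier and 0 symbols changed). The share of probes at exact 0 was 32.2%, 23.5% and 29.6% for the 3 arrays in order. Of the 9910 probes with a ratio on all 3 arrays, the 7730 with 1 symbol were averaged per gene. The mean ratio of each gene was tested against 0, two-sided, with limma 3.58.1 (lmFit, eBayes; R 4.3.3). P-values were Benjamini-Hochberg adjusted over all 5520 genes, with calls under 0.05, and the fit was tested on simulated data.

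The members, lists and tests were chosen with earlier results of these data known. All members are named. Of each partner list the text names direct binding partners, the 2 genes past the test with the largest means and the one furthest against the list median, and, for Anxa2 and Myof, the 3 nearest genes. Outside that rule, Fer1l4, S100a1, Cav3 and the cell type markers are named after their values were seen. A plasminogen list of 10 genes had 0 genes among the named probes and was not analysed here. Alternatives were leaving out each array, exact zeros kept, ratios on at least 2 arrays, the median probe, centring, scaling, natural logs, other variance models and a threshold of 0.01.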

Additional observations from a re-analysis of the deposited data

How the results depend on the processing

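No member with a ratio on all arrays changed sign under any alternative run. Each had the same sign on all 3 arrays, so leaving out an array, scaling or natural logs could not change it. Leaving out 1 array at a time, Myof ranged from -3.79 to -3.70, Anxa2 from -2.57 to -2.28 and the annexin median from -1.29 to -1.21 on the log2 scale. The count of genes lower in liver ranged from 1495 to 2079 and of those higher from 1260 to 1925. Over the 31 measured partner genes, the calls lower in liver (14) ranged from 14 to 15, and those higher (8) from 4 without array 3 to 10 without array 1. With exact zeros counted as measured ratios of 1, the set of genes grew as well. Anxa2 stood at -1.22 and the median of 10 annexins, not 9, at -0.84. Lower in liver were 1229 of 7984 genes and higher 1162, against 1872 and 1663 of 5520. Of 41 partner genes, not 31, 12 were lower and 2 higher. Read as natural logs, Myof stood at -5.42, Anxa2 at -3.51 and the annexin median at -1.83. Without moderation of the variance 1054 genes were lower and 1033 higher, and 11 partner genes were lower and 2 higher. At a threshold of 0.01, 12 partner genes were lower and 5 higher. The natural log values are larger by construction, and a stricter threshold can only lower a count. With zeros counted, Anxa2 and Anxa6 shrink because each has another probe at 0 on all arrays. The annexin median shifts because these 2 values shrink and Anxa4 enters. For the others the cause was not tested. Of 132 comparisons of a named partner gene with an alternative, 122 kept direction and call and 10 lost the call, all with the direction kept. Part of this was fixed in advance, since natural logs could change neither and the other variance models could not change a direction. Each ratio sets liver against UMRR on the same array, so the test against 0 already uses that pairing. The arrays form 1 group, so no comparison between groups was possible. Signal over background was not used here, so dim probes could not be told from others.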
